A study of Mus musculus with 9 samples.

Results

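Interneuron identity in sorted cortical neuronal nuclei was followed through 10 genes chosen by name: Gad1, Gad2, Slc32a1, Lhx6, Pvalb, Sst, Adarb2, Vip, Calb1 and Calb2. They are 10 of the 55401 genes in the count tables, and all 10 had counts in every library and passed the filter on low counts. Nuclei carrying the neuronal antigen NeuN had been sorted from mouse cortex at 7 to 9 months of age, and their total RNA, introns included, was sequenced in 9 libraries. There were 3 groups of 3: untreated wild-type mice, mice with the P301S Tau transgene given scrmb peptide (a scrambled control, called scrambled below), and mice with the same transgene given Cdk5i peptide. Both peptides were injected intraperitoneally on alternate days at 20 mg/kg. The scrambled and Cdk5i groups therefore share genotype and injection. The wild-type mice differed from both in the transgene and in having had no injection, and these cannot be told apart. The labels name neither the P301S line nor the promoter that drives it, and nothing in them ties a library to its own mouse, so the p-values reflect only how far these libraries differ.

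Cortical interneurons make the inhibitory transmitter GABA from glutamate with the glutamic acid decarboxylases encoded by Gad1 and Gad2, and Slc32a1 encodes the transporter that loads GABA into vesicles. Interneurons born in the medial ganglionic eminence keep the transcription factor Lhx6 and later divide into cells with parvalbumin (Pvalb) or somatostatin (Sst), while those from the caudal eminence carry Adarb2, an RNA-editing family protein without known catalytic activity, and include the cells with vasoactive intestinal peptide (Vip). Calb1 (calbindin) and Calb2 (calretinin) are calcium-binding proteins that mark subsets of interneurons but are not limited to them. Gad1, Gad2 and Slc32a1 are also expressed by the GABAergic projection neurons of the striatum, which lies directly beneath the cortex.

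The windows before the starts of 4 genes are shown because these genes recur below. Gad1, Gad2 and Slc32a1 serve the same transmitter, and Adarb2 held most of the members' signal. No result rests on the windows. Each is the 250 bases before the start in RefSeq (GRCm38.p6), 5′ to 3′ on the plus strand, without the bases that the annotation gives to an exon of the gene itself. The Gad1 stretch lies at chr2:70561879-70562041, that of Gad2 at chr2:22622077-22622204, that of Slc32a1 at chr2:158610508-158610757 and that of Adarb2 at chr13:8202616-8202865. Capitals mark a match to TATAAA or TAATTA on either strand.
Gad1: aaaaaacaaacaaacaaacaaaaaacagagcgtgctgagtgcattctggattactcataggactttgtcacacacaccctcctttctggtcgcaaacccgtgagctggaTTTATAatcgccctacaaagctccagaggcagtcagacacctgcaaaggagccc
Gad2: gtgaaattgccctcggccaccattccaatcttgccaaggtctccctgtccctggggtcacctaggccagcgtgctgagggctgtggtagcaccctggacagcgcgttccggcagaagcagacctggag
Slc32a1: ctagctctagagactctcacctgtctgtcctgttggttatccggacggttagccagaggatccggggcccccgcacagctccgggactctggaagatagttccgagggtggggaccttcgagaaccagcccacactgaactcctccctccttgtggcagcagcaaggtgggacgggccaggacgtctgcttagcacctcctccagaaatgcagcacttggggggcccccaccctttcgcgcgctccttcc
Adarb2: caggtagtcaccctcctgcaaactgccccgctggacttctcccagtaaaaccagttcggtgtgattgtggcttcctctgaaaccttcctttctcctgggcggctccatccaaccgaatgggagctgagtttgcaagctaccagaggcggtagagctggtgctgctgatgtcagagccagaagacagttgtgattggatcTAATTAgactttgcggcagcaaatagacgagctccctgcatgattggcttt
The Gad1 match is TATAAA read on the opposite strand, 141 bases before the RefSeq start. That start lies inside the gene as counted, which begins at chr2:70553072. It also lies past the end of the stretch shown, from which 87 exon bases were left out. The motif was found in 12.4% of all 32851 windows of 250 bases. Adarb2 holds TAATTA 51 bases before its start, as 4.84% of windows do. Neither motif nor TGACGTCA, which 1.55% of windows hold, was found in the windows of Gad2 and Slc32a1. The full windows held 17 CpG pairs for Gad1, 13 for Gad2, 12 for Slc32a1 and 7 for Adarb2, against a median of 6 over all windows. These matches describe letters in the windows and say nothing of binding.

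Libraries held 21584712 to 26715938 counts, with 0.879 to 3.18% of them in ribosomal and mitochondrial genes. Levels below are CPM (each gene's counts scaled to a common library size of 1000000), after TMM factors, and each count covers the whole gene with its introns, at the GRCm38 coordinates given below. Other genes on the same strand overlap at most 1.62% of any member's length, in Adarb2. Adarb2, which spans 565.9 kb (ENSMUSG00000052551, chr13:8202866-8768747), reached 670.3 to 944.3 CPM and made up 70.9 to 78.6% of the members' summed CPM. At the other end, Pvalb had 67 to 117 counts in a library and Calb2 68 to 119. Divided by gene length, the order of the mean levels was Sst at 9.05 CPM per kb, Slc32a1 at 2.84, Gad1 at 1.99, Adarb2 at 1.44, Calb1 at 1.44, Gad2 at 1.27, Vip at 0.682, Lhx6 at 0.321, Pvalb at 0.260 and Calb2 at 0.137. Sst stood apart from all others over the 9 libraries, at 5.96 to 11.3 CPM per kb against at most 3.03 for Slc32a1. It is also the shortest member, at 1.386 kb, and by CPM alone it ranked 6 of 10, with a mean of 12.5. The part of gene length in this order was not tested. The ranges of Slc32a1 and Gad1 overlapped, as did those of Gad1, Adarb2, Calb1 and Gad2 with each other, of Gad2 and Vip, and of Lhx6 and Pvalb. Vip did not overlap Lhx6, and Pvalb did not overlap Calb2. Among the 16046 genes tested, the level per kb placed Sst at percentile 99.0, Gad1 at 89.4 and Calb2 at 23.5.

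The members also differed in how much they varied between libraries. Slc32a1 was the steadiest, with a coefficient of variation of 6.39% over the 9 libraries, and its spread was 1.34 times what counting alone gives (chi-square over degrees of freedom). Gad1 varied most, with a coefficient of 20.6% and a highest library 1.87 times the lowest, and its spread was 94.4 times the counting value. For Gad2 the coefficient was 18.0% and the ratio to counting 68.2. Adarb2 had a coefficient of 12.2% but, with a mean of 19262 counts, a ratio of 292.4. The other 6 genes lay between 14.7% (Calb1) and 20.1% (Vip), on fewer counts.

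**Figure D1:**
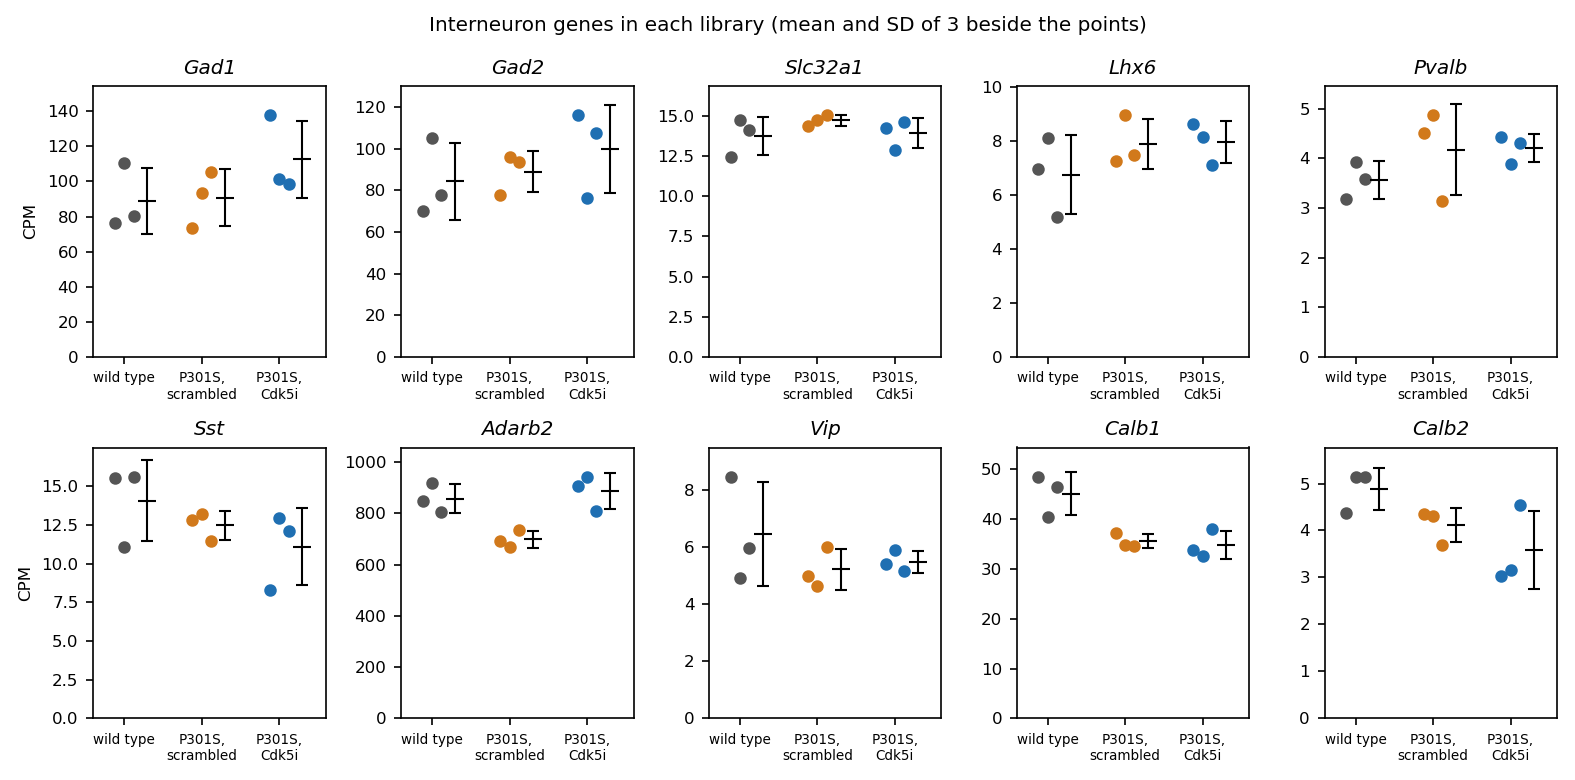
CPM of each of the 10 genes (vertical axes, from 0) in every library of the 3 groups (horizontal axis), with points for libraries and, beside them, the mean and SD of 3. Gad1 and Gad2 spread widely within each group, Slc32a1 stays within 12.4 to 15.1 CPM, and Adarb2 in the scrambled group and Calb1 in the wild-type group do not overlap the other groups.

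The first comparison asks how transgenic mice given the control peptide differed from untreated wild-type mice. With edgeR's quasi-likelihood test and Benjamini-Hochberg adjustment over all genes, 0 of the 10 members passed, where 0.0810% of all genes did. At an unadjusted p under 0.05 there were 2 (Calb1 and Adarb2), that is 20.0% against 10.1% of all genes. DESeq2 called 0 members as well (0.442% of all genes), and so did limma-voom. The scrambled and wild-type libraries did not overlap for 3 members, all lower in the scrambled group (Calb1, Calb2 and Adarb2), where 8.03% of all genes were lower, 8.26% higher and 16.3% either without overlap. The median log2 fold change was -0.07 over the members and 0.01 over all genes.

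The second comparison sets Cdk5i peptide against scrambled peptide in the same genotype. Again 0 of 10 passed in edgeR, against 0.0125% of all genes, and 1 (Adarb2) had an unadjusted p under 0.05, against 5.33%. DESeq2 called 1, Adarb2, with 0.168% of all genes called, and limma-voom 0. Adarb2 was also the 1 member whose groups did not overlap, higher with Cdk5i, where 4.95% of all genes were higher, 5.38% lower and 10.3% either. The median log2 fold change was 0.01, against -0.01 over all genes. The third comparison, Cdk5i against wild type, gave 0 calls in edgeR (0.0748% of all genes), 2 members at an unadjusted p under 0.05 (Calb1 and Calb2, against 11.0%) and 1 without overlap (Calb1, lower, against 8.22% lower, 8.03% higher and 16.3% either). DESeq2 called 1, Calb1, with 0.698% of all genes called, and limma-voom 0. These comparisons share groups, so their values are not independent of each other. In nuclei pooled from many cells, fewer cells of a type and less RNA per cell cannot be told apart.

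**Figure D2:**
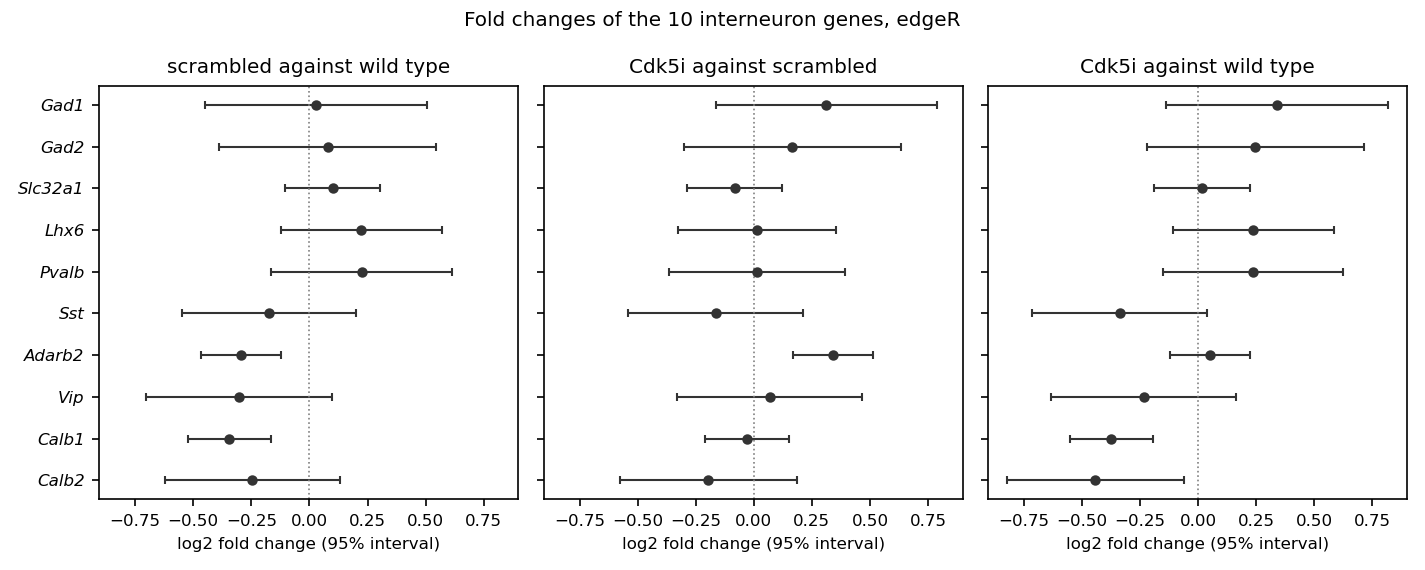
Log2 fold change (horizontal axes) with its 95% interval for each gene in the 3 comparisons, from edgeR. Intervals exclude 0 for Calb1 and Adarb2 in scrambled against wild type, for Adarb2 in Cdk5i against scrambled, and for Calb1 and Calb2 in Cdk5i against wild type; none of these passed adjustment over all genes.

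Among the genes shared by all interneurons, Gad1 (ENSMUSG00000070880, chr2:70553072-70602014) measured 76.1, 110.5 and 80.4 CPM in the wild-type libraries 1 to 3, 73.6, 93.5 and 105.4 in the scrambled libraries, and 137.9, 101.4 and 98.8 in the Cdk5i libraries. The groups overlapped, and the Cdk5i library 1 was the highest of all 9. The log2 fold change of Cdk5i against scrambled was 0.31 (SE 0.20, edgeR adjusted p = 0.953), with an interval of -0.16 to 0.79, and without Cdk5i library 1 it was 0.14. For scrambled against wild type it was 0.03 (SE 0.20, edgeR adjusted p = 0.976).

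Gad2 (ENSMUSG00000026787, chr2:22622205-22693874), the second decarboxylase, measured 70.2, 104.9 and 77.6 CPM in the wild-type libraries, 77.5, 96.1 and 93.4 in the scrambled ones and 116.2, 76.1 and 107.4 in the Cdk5i ones. It overlapped between all groups, and in 8 libraries it stayed near Gad1: the ratio of Gad1 to Gad2 was 0.920 to 1.19 there. In the Cdk5i library 2 that ratio was 1.33. The log2 fold change of Cdk5i against scrambled was 0.17 (SE 0.20, edgeR adjusted p = 0.970).

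Slc32a1 (ENSMUSG00000037771, chr2:158610767-158615748) gave 12.4, 14.7 and 14.1 CPM in the wild-type libraries, 14.4, 14.8 and 15.1 in the scrambled ones and 14.2, 12.9 and 14.7 in the Cdk5i ones. Its groups overlapped in every comparison. The log2 fold change was 0.10 (interval -0.11 to 0.30) for scrambled against wild type, -0.08 (-0.29 to 0.12) for Cdk5i against scrambled and 0.02 (-0.19 to 0.22) for Cdk5i against wild type, the narrowest intervals among the 3 genes for GABA synthesis and loading.

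In the medial-eminence branch, Lhx6 (ENSMUSG00000026890, chr2:36081953-36105408) measured 6.97, 8.10 and 5.18 CPM in the wild-type libraries, 7.25, 8.95 and 7.46 in the scrambled ones and 8.62, 8.15 and 7.10 in the Cdk5i ones. Pvalb (ENSMUSG00000005716, chr15:78191114-78206400), which marks fast-spiking cells, measured 3.18, 3.93 and 3.59, then 4.51, 4.87 and 3.13, then 4.42, 3.89 and 4.32 CPM in the same order. Both overlapped in every comparison, and both had positive log2 fold changes in the transgenic groups against wild type, at 0.22 for each with scrambled peptide and 0.24 for each with Cdk5i. Their standard errors were 0.16 for Lhx6 and 0.18 for Pvalb in those comparisons, with edgeR adjusted p of 0.617 to 0.721. Without wild-type library 3 the Lhx6 values were 0.06 with scrambled peptide and 0.08 with Cdk5i, and without wild-type library 2 they were 0.38 and 0.39. For Pvalb with scrambled peptide the value was 0.10 without scrambled library 2 and 0.39 without scrambled library 3.

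Sst (ENSMUSG00000004366, chr16:23889573-23890958), the peptide of dendrite-targeting interneurons, measured 15.5, 11.0 and 15.6 CPM in the wild-type libraries, 12.8, 13.2 and 11.4 in the scrambled ones and 8.26, 12.9 and 12.1 in the Cdk5i ones. The lowest value belonged to the Cdk5i library in which Gad1 and Gad2 were highest, and the groups overlapped. Its log2 fold change was -0.34 (SE 0.17, edgeR adjusted p = 0.504) for Cdk5i against wild type and -0.17 for scrambled against wild type. The former was -0.17 without Cdk5i library 1, and -0.06 in the model with a striatal marker term described further on. Lhx6, Pvalb and Sst are therefore not alike in sign against wild type, and none passed.

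Adarb2, the caudal-eminence marker, measured 849.6, 917.2 and 805.8 CPM in the wild-type libraries, 693.7, 670.3 and 734.6 in the scrambled ones and 907.3, 944.3 and 809.9 in the Cdk5i ones. All 3 scrambled libraries were below all 6 others, while wild type and Cdk5i overlapped. The log2 fold change was -0.29 (SE 0.08, unadjusted p = 0.00272, edgeR adjusted p = 0.285) for scrambled against wild type and 0.34 (SE 0.08, unadjusted p = 8.51e-04, edgeR adjusted p = 0.491) for Cdk5i against scrambled. Both values rest on the same 3 scrambled libraries. For Cdk5i against wild type it was 0.05 (interval -0.12 to 0.22). DESeq2 called the difference between the peptides, with an adjusted p of 0.0205.

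The longest genes had medians of the same signs in scrambled against wild type and Cdk5i against scrambled. Adarb2 was therefore set beside the 235 tested genes of at least 500 kb, itself included. Their median log2 fold change was -0.13 for scrambled against wild type and 0.10 for Cdk5i against scrambled. Of the 235, 24 lay below Adarb2 in the former comparison and 3 above it in the latter. In Cdk5i against wild type the signs differed, with a median of -0.05 over the 235 and 0.05 for Adarb2. The part of gene length in the Adarb2 values was not tested.

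Vip (ENSMUSG00000019772, chr10:5639218-5647617) measured 8.49, 4.92 and 5.99 CPM in the wild-type libraries, 5.01, 4.65 and 6.03 in the scrambled ones and 5.40, 5.91 and 5.16 in the Cdk5i ones. Its highest library was wild-type 1, and the groups overlapped. The log2 fold change was -0.30 (SE 0.18, edgeR adjusted p = 0.614) for scrambled against wild type, where Adarb2 gave -0.29. For Cdk5i against scrambled it was 0.07, with an interval of -0.33 to 0.47 that holds the 0.34 of Adarb2. The difference between the Vip and Adarb2 fold changes was not tested.

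Of the calcium-binding proteins, Calb1 (ENSMUSG00000028222, chr4:15881264-15908064) measured 48.6, 40.4 and 46.5 CPM in the wild-type libraries, 37.1, 34.9 and 34.5 in the scrambled ones and 33.9, 32.5 and 38.0 in the Cdk5i ones. All 3 wild-type libraries were above all 6 transgenic ones, and the transgenic groups overlapped. The log2 fold change was -0.35 (SE 0.08, unadjusted p = 0.00105, edgeR adjusted p = 0.230) for scrambled and -0.38 (SE 0.08, unadjusted p = 5.47e-04, edgeR adjusted p = 0.138) for Cdk5i against the same wild-type libraries. DESeq2 called the latter, with an adjusted p of 0.0266. Between the peptides it was -0.03 (interval -0.21 to 0.15).

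Calb2 (ENSMUSG00000003657, chr8:110137502-110168210) measured 4.36, 5.15 and 5.13 CPM in the wild-type libraries, 4.36, 4.30 and 3.69 in the scrambled ones and 3.04, 3.16 and 4.54 in the Cdk5i ones. The scrambled libraries lay just under the lowest wild-type library, and the Cdk5i library 3 lay within the wild-type range. Cdk5i against wild type gave a log2 fold change of -0.44 (SE 0.18, unadjusted p = 0.0257, edgeR adjusted p = 0.387). Calb1 stood at 7.85 to 11.2 times the CPM of Calb2 in every library. The summed oligodendrocyte markers, 12 of 12 above 0 in every library, ranged over 158.4 to 165.7 CPM (wild type), 186.5 to 212.9 (scrambled) and 154.7 to 198.5 (Cdk5i). Enpp2, with a mean of 87.4 CPM, and Mbp, with 74.1, made up most of that sum, and Ugt8a came next at 7.44. Across the 9 libraries the sum ran against Calb1 (Pearson's r = -0.73, rho = -0.63, exact permutation p = 0.0289 and 0.0760, adjusted over 70 relations 0.226 and 0.355), with r = -0.88 without the 2 libraries farthest from the median but -0.45 on deviations from the group means. For Calb2 the same list gave r = -0.75 and rho = -0.77 (exact permutation p = 0.0253 and 0.0214, adjusted p = 0.226 and 0.214), with -0.68 without the 2 farthest and -0.94 on deviations from the group means. This list did not stand alone, as 10 of the 70 relations had an exact permutation p under 0.05. The excitatory neuron markers gave r = -0.80 and rho = -0.73 with Calb2 (exact permutation p = 0.00842 and 0.0311, adjusted p = 0.118 and 0.218). With Calb1 they gave r = -0.58 and rho = -0.78 (exact permutation p = 0.103 and 0.0172, adjusted p = 0.515 and 0.214). The part of either list in the Calb1 and Calb2 values was not tested.

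A sort of cortical nuclei can hold nuclei of neighbouring tissue, and whether this one did was not tested. Of 15 markers of striatal projection neurons, 15 were above 0 in every library. Their summed CPM was 2068, 3401 and 2520 in the wild-type libraries, 2113, 2923 and 3067 in the scrambled ones and 4260, 3049 and 3244 in the Cdk5i ones. Pde10a, a phosphodiesterase of these cells that other neurons also express, made up 53.9 to 68.9% of the sum. The dopamine receptor gene Drd2 ran from 22.3 CPM in wild-type library 1 to 89.6 in Cdk5i library 1. Of the 15 markers, 13 had a positive log2 fold change in scrambled against wild type (median 0.31), 14 in Cdk5i against scrambled (median 0.29) and 15 in Cdk5i against wild type (median 0.60), and edgeR called 0 in each. Of all genes, 51.7, 47.2 and 48.8% had a positive log2 fold change in the same order. At an unadjusted p under 0.05 there were 0, 0 and 3 of the 15, beside 10.1, 5.33 and 11.0% of all genes.

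Across the 9 libraries Gad1 followed this sum, with Pearson's r = 0.98 (two-sided exact permutation p = 6.34e-05, adjusted p = 0.00444 over the 70 relations between 10 genes and 7 lists of markers of other cells). Spearman's rho was 0.93 (exact permutation p = 7.50e-04, adjusted p = 0.0525). The relation was as strong on deviations from the group means (r = 0.96) and without the pair of libraries farthest from the median, wild-type 1 and scrambled 1 (r = 0.97). With Pde10a left out of the sum, r was 0.87 and its adjusted p 0.0684 by exact permutation.

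Gad2 gave r = 0.87 (exact permutation p = 0.00143, adjusted p = 0.04996, just under the threshold) and rho = 0.85 (exact permutation p = 0.00607, adjusted p = 0.142). On deviations from the group means r was 0.87, without wild-type 1 and scrambled 1 it was 0.80, and without Pde10a it was 0.96 with an adjusted p of 0.00367 by exact permutation. Leaving out 1 library at a time ended its call in 7 of 9 cases. These 2 were the relations of 70 that passed on r, and 0 passed on rho.

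For Slc32a1, the transporter of the same pathway, r was 0.42 and rho 0.42 (exact permutation p = 0.257 and 0.270, adjusted p = 0.599 and 0.674), without the same pair of libraries r was 0.08, and on deviations from the group means it was 0.73. Lhx6 gave r = 0.51 and rho = 0.50 (exact permutation p = 0.165 and 0.178, adjusted p = 0.598 and 0.565), with r = 0.64 without that pair. Sst ran the other way, with r = -0.84 and rho = -0.85 (exact permutation p = 0.00473 and 0.00607, adjusted p = 0.0828 and 0.142), and r = -0.98 without that pair. The differences between these correlations were not tested. The libraries with more Gad1 and Gad2, both taken here as interneuron genes, tended to have more of the striatal markers and less Sst. The part of striatal nuclei in these values was not tested.

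**Figure D3:**
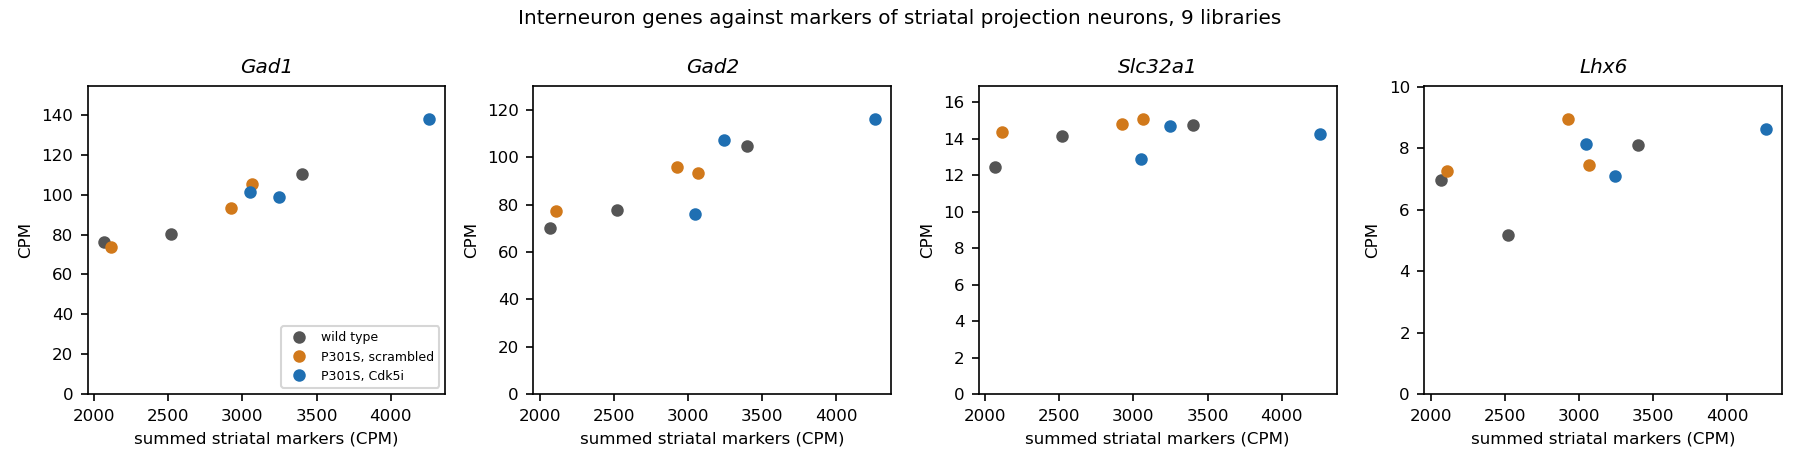
CPM of Gad1, Gad2, Slc32a1 and Lhx6 (vertical axes, from 0) against the summed CPM of 15 striatal projection neuron markers (horizontal axes, not starting at 0) in the 9 libraries, coloured by group. Gad1 climbs with the sum from 73.6 to 137.9 CPM across all 3 groups, and Slc32a1 stays nearly level. Gad2 also climbs, with the Cdk5i library 2 below libraries of similar sum.

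With the log of the summed striatal markers as a term in the edgeR model, the log2 fold change of Gad1 for Cdk5i against scrambled was -0.02 (SE 0.08) where it had been 0.31 (SE 0.20). For Gad2 it was -0.14 (SE 0.11) where it had been 0.17, and for Slc32a1 -0.17 where it had been -0.08. Adjusted p stayed above the threshold for all 3. That term was built from the same libraries and takes up part of the difference between groups. The cause of these shifts was not tested.

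Of the 45 pairs of members, 21 had a positive Pearson's r over the 9 libraries, the median was -0.09, 8 had an exact permutation p under 0.05 and 0 passed adjustment over the 45 on either r or rho. Gad1 and Gad2 had the highest r, 0.82 (exact permutation p = 0.00752, adjusted p = 0.0846), with rho = 0.67 (exact permutation p = 0.0589, adjusted p = 0.442) and r = 0.72 without the 2 libraries farthest from the median. Gad1 and Sst had the lowest, -0.89 (exact permutation p = 0.00215, adjusted p = 0.0502), with rho = -0.78 (exact permutation p = 0.0172, adjusted p = 0.258) and r = -0.97 without the 2 farthest. Pvalb and Vip, which mark cells of the separate eminences, gave -0.80 (exact permutation p = 0.00335, adjusted p = 0.0502), with rho = -0.87 (exact permutation p = 0.00451, adjusted p = 0.101) and r = -0.87 without the 2 farthest. Gad2 and Slc32a1 gave r = 0.69 (exact permutation p = 0.0338, adjusted p = 0.190), with rho = 0.55 (exact permutation p = 0.133, adjusted p = 0.4997) and r = 0.68 without the 2 farthest. On deviations from the group means it was 0.86 for that pair and 0.79 for Gad1 and Gad2. Calb1 and Calb2 gave r = 0.72 (exact permutation p = 0.0319, adjusted p = 0.190), with rho = 0.87 (exact permutation p = 0.00451, adjusted p = 0.101) and r = 0.91 without the 2 farthest, but 0.38 on deviations from the group means.

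**Figure D4:**
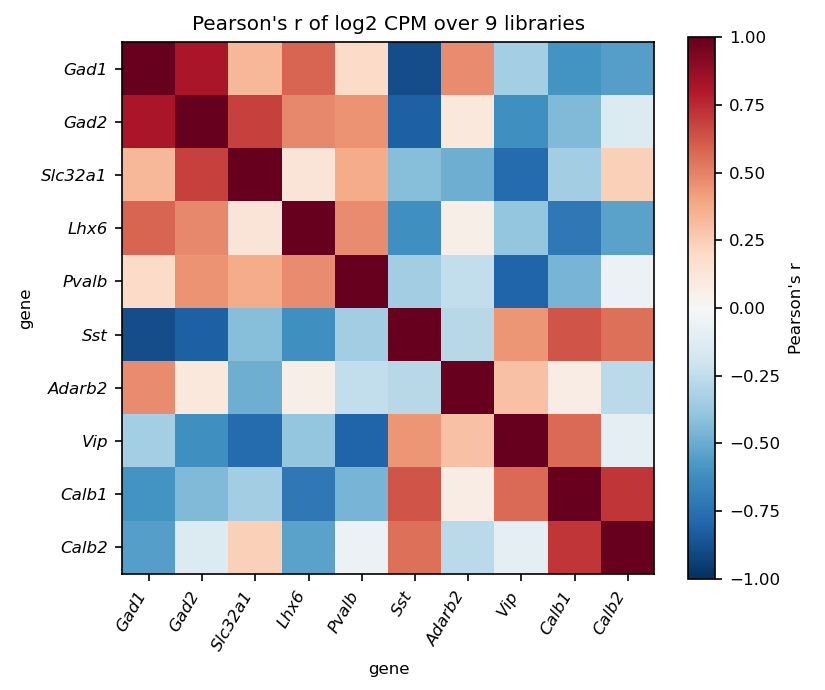
Pearson's r of log2 CPM over the 9 libraries for each pair of the 10 genes, from blue (negative) to red (positive). Gad1 with Gad2 is the most positive pair at 0.82 and Gad1 with Sst the most negative at -0.89.

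The genes whose pattern over the 9 libraries was most like that of the summed Gad1, Gad2 and Slc32a1 were sought among 11906 tested genes with a mean of at least 50 counts. They were G630016G05Rik (Pearson's r = 0.99), Zfp385b (0.98), Meis2 (0.98), Nt5e (0.98) and Fat3 (0.98), with rho of 0.98 to 1.00, and 0.874% of the candidates had r above 0.9. Meis2 is itself among the 15 striatal markers. For Lhx6 they were Tmem191c (r = 0.97), Fgd3 (0.95) and Srrt (0.94), with 0.0924% above 0.9, and for Adarb2 they were Nf1 (0.95), Cpne4 (0.95) and Gm9930 (0.94), with 0.118%. These genes were picked for their likeness, so the values describe and do not test.

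Around the 10 members, 8 lists of other inhibitory neuron genes were followed: 74 genes, of which 65 were tested. In edgeR 0 of the 65 passed in each comparison, and 10, 5 and 3 had an unadjusted p under 0.05 in scrambled against wild type, Cdk5i against scrambled and Cdk5i against wild type. Those are 15.4, 7.69 and 4.62% of the 65, beside 10.1, 5.33 and 11.0% of all genes. DESeq2 and limma-voom also called 0. In scrambled against wild type 13 were lower and 1 higher without overlap, where 8.03% of all genes were lower and 8.26% higher. In Cdk5i against scrambled 4 were higher and 1 lower (all genes 4.95% and 5.38%), and in Cdk5i against wild type 1 was higher and 3 lower (all genes 8.03% and 8.22%). The median log2 fold changes were 0.02, 0.03 and 0.04.

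The abundant genes of the lists gave the following values. Erbb4, the neuregulin receptor of interneurons, averaged 1162 ± 145.1 CPM in the wild-type group, 959.4 ± 39.8 in the scrambled group and 1053 ± 42.0 in the Cdk5i group (SD, n = 3), and the scrambled libraries lay below all others. Its log2 fold change was -0.28 for scrambled against wild type (edgeR adjusted p = 0.330) and 0.13 for Cdk5i against scrambled (edgeR adjusted p = 0.953). Reln, the secreted glycoprotein reelin of superficial interneurons, had 217.1 ± 27.3, 174.5 ± 8.41 and 213.7 ± 19.3 CPM (SD, n = 3), with log2 fold changes of -0.31 (edgeR adjusted p = 0.311) and 0.29 (edgeR adjusted p = 0.768). Cntnap4, a neurexin-family adhesion gene in the parvalbumin list, gave -0.28 and 0.24, and Synpr, the synaptic vesicle protein synaptoporin, gave -0.28 and 0.25. For these 4 genes and Adarb2 the scrambled libraries overlapped neither other group.

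Nxph1, Kcnc2, Grin3a, Nr2f2 and Cnr1 were also lower in scrambled than in wild type without overlap, but overlapped between the peptides. Nxph1, the neurexophilin of the medial-eminence list, gave -0.19 for scrambled against wild type and 0.09 for Cdk5i against scrambled, and Sox6, a transcription factor of that branch, gave -0.07 and 0.05. Kcnc2, a potassium channel subunit of fast-spiking cells, gave -0.16 and 0.10, and Grin3a, a glutamate receptor subunit in the somatostatin list, gave -0.20 and 0.04. Elfn1, a synaptic adhesion protein of somatostatin cells, gave 0.15 and 0.13. Of the caudal-eminence transcription factors, Prox1 gave 0.04 and -0.20 and Nr2f2 -0.54 (SE 0.36) and 0.42 (SE 0.36).

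Among genes of GABA and glutamate handling, Slc38a1, a glutamine transporter, gave 0.08 and -0.04. Dlx1as, a non-coding transcript at the Dlx1 locus, gave -0.11 and 0.01. Cnr1, the cannabinoid receptor, gave -0.19 and 0.14. Penk, the enkephalin precursor, gave 0.06 and 0.18 with standard errors of 0.27; it is also abundant in striatal projection neurons. In edgeR none of these genes passed in any comparison.

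By length, the 15 wider genes of at least 100 kb had 7 lower and 0 higher without overlap in scrambled against wild type (median log2 fold change -0.16), and 4 higher and 0 lower in Cdk5i against scrambled (median 0.10). The 50 shorter ones had 6 lower and 1 higher (median 0.05), then 0 higher and 1 lower (median -0.03). Over all genes, the 2601 of at least 100 kb had medians of -0.04 and 0.06 and the 13445 shorter ones 0.02 and -0.02. Of all genes of at least 100 kb, 14.8% were lower and 5.34% higher without overlap in scrambled against wild type, and 10.8% were higher and 1.88% lower in Cdk5i against scrambled. Of all shorter genes, 6.72% were lower and 8.82% higher, then 3.82% higher and 6.06% lower. The difference between the length classes was not tested.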

How the data were processed

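Total RNA of sorted NeuN-positive nuclei from mouse cortex was sequenced as 40-base paired reads from a stranded total RNA kit, per the labels' protocols. The authors' deposited values are raw counts of read pairs per whole gene, made by featureCounts with reversed strand on Ensembl release 102, as the file headers record. STAR 2.7.9a, Subread 2.0.0, DESeq2 1.36.0 and GRCm38 are named in the submitters' processing notes. Groups came from the sample titles. The counts were fitted with edgeR 4.0.16 in R 4.3.3: filterByExpr by group (minimum count 10), which kept 16046 genes, TMM factors, robust quasi-likelihood, 3 group means over 9 libraries, and Benjamini-Hochberg adjustment over all genes at 0.05. The standard error is the log2 fold change over the square root of F. Correlations used log2 CPM with a prior count of 0.5 and exact permutation of all orders of the 9 libraries.

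The edgeR fit was tested on simulated counts, and the permutation test on small made-up examples. The DESeq2 and limma-voom fits were not tested in this way. Within each group no library was a copy of another: replicates differed beyond sampling noise. Libraries of different groups were not compared in this way. Members and lists were chosen with earlier results of these data known. Named genes are the members, every called gene and the 2 most abundant of each wider list, and the genes of most similar pattern. A gene that this rule names is not reported here. Dlx6os1 matched more than 1 identifier and was not used. Alternatives were DESeq2 1.42.0, limma-voom (limma 3.58.1), other scalings, filters and dispersions, a replicate block, a striatal marker term and leaving out libraries. Promoter windows came from RefSeq, with 8 of the 10 members matched.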

Additional observations from a re-analysis of the deposited data

How the results depend on the processing

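Of the 30 fold changes of the members, 17 kept their sign under all alternatives, and of 570 alternative values 28 changed sign and 6 passed, all of Adarb2 or Calb1. Without a filter on low counts edgeR called 2 members (Adarb2, Calb1) in scrambled against wild type, 1 (Adarb2) in Cdk5i against scrambled and 1 (Calb1) in Cdk5i against wild type, and 5 and 2 wider genes in the former pair of comparisons; that setting called 318, 159 and 408 of all genes against 13, 2 and 12. DESeq2 called 1 member (Adarb2) in Cdk5i against scrambled and 1 (Calb1) in Cdk5i against wild type, and 71, 27 and 112 of all genes. The cause was not tested. With the striatal term, the fold changes of Cdk5i against scrambled became -0.022 for Gad1, -0.136 for Gad2, -0.119 for Lhx6, -0.027 for Pvalb, 0.079 for Sst and 0.066 for Calb1, and those against wild type -0.016 for Gad1, -0.067 for Gad2 and -0.073 for Slc32a1; that term called 31, 40 and 9 of all genes. Limma-voom gave -0.0073 for Pvalb in Cdk5i against scrambled. Calls over all genes were 6, 2 and 6 with a filter of 50 counts, 6, 2 and 3 with non-robust dispersion, and 15, 2 and 2 with only the compared groups.

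Leaving out 1 library at a time gave 0 called members throughout. The log2 fold changes then ran from -0.092 to 0.22 for Gad1 and -0.037 to 0.27 for Gad2 in scrambled against wild type, from 0.14 to 0.44 for Gad1 in Cdk5i against scrambled, from -0.48 to -0.17 for Sst in Cdk5i against wild type, from -0.046 to 0.12 for Lhx6, -0.15 to 0.14 for Pvalb, -0.29 to 0.0045 for Sst, -0.0016 to 0.19 for Vip and -0.091 to 0.018 for Calb1 in Cdk5i against scrambled, and from -0.051 to 0.071 for Slc32a1 and -0.40 to 0.0090 for Vip in Cdk5i against wild type. The correlation with the striatal markers ran from 0.96 to 0.98 for Gad1 and 0.81 to 0.96 for Gad2, whose adjusted exact permutation p reached 0.336 without Cdk5i library 1. Member pairs passing ran from 0 to 1, the latter without scrambled library 1. Leaving Pde10a out of the sum, chosen after seeing the data, gave 0.87 for Gad1, with an adjusted exact permutation p of 0.0684.

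The replicate numbers gave no sign of pairing the libraries. Same-numbered libraries deviated with correlations of -0.29 to 0.17, and 0 of 9 correlated best with its own number. With 3 libraries a group, that cannot exclude a pairing. With a replicate block edgeR called 0 members in each comparison and 2, 2 and 2 of all genes. With 67 to 119 counts per library for Pvalb and Calb2 and 3 libraries a group, their standard errors of 0.17 to 0.18 limit what could be detected.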
